A study of Bos taurus and Bos indicus with 3 samples.

Results

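Zinc finger transcription factors form the largest family of DNA-binding regulators in mammals, and 170 of the 25968 gene models of a cattle leukocyte transcriptome carried the name of one at a level of at least 10 FPKM (fragments per kilobase of exon, scaled to the mapped fragments of the library). The members were gene models with a single gene name that began with ZNF, ZBTB, ZSCAN or ZFP followed by a number, or with the matching bovine protein entry name, and with at least 10 FPKM in any library. Models named only by a protein accession were not matched, so the 170 are not the whole family, and the gene lists used below were matched in part for the same reason. They comprised 136 ZNF, 24 ZBTB, 8 ZFP and 2 ZSCAN models for 169 different genes, since ZNF354A stood on separate models of chromosome 7. Of the 212 models that the names alone gave, 13 were above 0 but under 10 FPKM in every library and 29 were listed at 0 in all 3. The highest value of the members closest to the limit was 10.4 FPKM for ZNF334, 10.6 for ZNF605 and 10.8 for ZNF548, and just outside it lay ZNF366 at 8.19, ZNF641 at 7.57 and ZNF84 at 7.55 FPKM.

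Polyadenylated RNA of white blood cells was sequenced as 1 library per breed, made from blood pooled from 40 Holstein cows, 7 Jersey cows or 45 Cholistani cows. Holstein and Jersey are taurine breeds (Bos taurus) and were bled at different university herds in Wisconsin, whereas Cholistani is an indicine breed (Bos indicus) that was bled on a farm in Pakistan and whose RNA travelled dried in the storage matrix RNAStable. All reads were aligned to the same cattle genome, a taurine assembly. Ages were not given in the sources used here. Breed, subspecies, herd, RNA storage and distance from the reference genome therefore cannot be told apart, and with 1 pooled library a breed no replicate error, test or p-value exists for any value given here.

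A zinc finger of the C2H2 kind is a short loop held by a zinc ion between paired cysteines and histidines, and several in a row read a stretch of DNA. Many ZNF proteins also carry a KRAB domain, which recruits the corepressor TRIM28 and with it enzymes that silence chromatin, chiefly at transposable elements. ZBTB proteins carry a BTB domain instead, through which they pair and bind corepressors, and several of them direct lymphocyte development. ZSCAN proteins pair through a SCAN domain. KRAB zinc finger genes arose by repeated local duplication and often stand in rows along a chromosome. Neighbouring copies can resemble each other closely, and reads that matched up to 20 places were kept in the alignment, so values of such copies are less certain than those of single genes.

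The family was expressed at low to moderate levels. The level of the median member was 38.2 FPKM in Holstein and 44.7 in Jersey, and it was 30.0 in Cholistani, against medians of 83.3, 85.9 and 88.3 FPKM over the 14069 models of all kinds with at least 10 FPKM in any library. At least 10 FPKM was reached by 161 members in Holstein, 167 in Jersey and 131 in Cholistani. In all, 128 members reached that level in all 3 libraries, 33 in 2 and 9 in a single library. At least 100 FPKM in any library was reached by 47. Summed over the members, the family took 0.211% (Holstein), 0.220% (Jersey) and 0.187% (Cholistani) of all FPKM. The single gene ZFP36 made up 1053 of 12553 summed FPKM in Holstein, 1138 of 13831 in Jersey and 5468 of 17753 in Cholistani. The Cholistani share thus rested more on that gene, which is described below. In bulk RNA such as this, fewer cells of a type and less RNA per cell cannot be told apart.

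**Figure D1:**
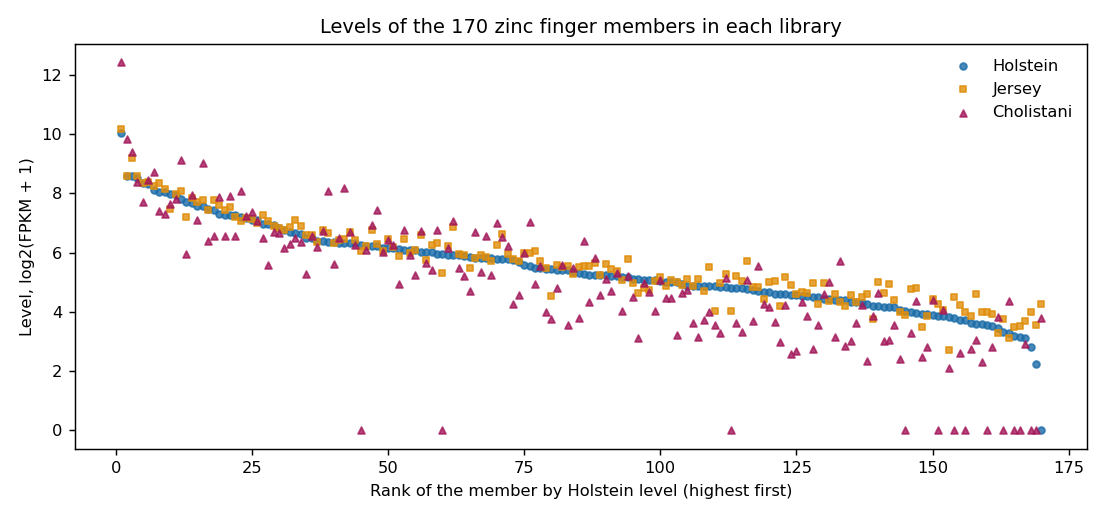
Level of each of the 170 members in each library as log2(FPKM + 1), with members ordered from the highest to the lowest Holstein level. Jersey points follow the Holstein points closely, while Cholistani points spread more widely, lie below them for most members of the lower ranks and reach 0 for 13 members.

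The most abundant member was not a transcription factor. ZFP36 (chromosome 18, 48604431 to 48605803 of btau4.0) encodes tristetraprolin, a protein with fingers of the CCCH kind that binds messages of inflammatory genes and hastens their decay. It measured 1053 FPKM in Holstein and 1138 in Jersey but 5468 in Cholistani, so that the Cholistani value was 5.19 times that of Holstein. ZNF330, a nucleolar protein, was at 362, 381 and 336 FPKM, listed here and in the next sentences in the order Holstein, Jersey, Cholistani. ZNF638, which binds RNA and takes part in silencing unintegrated retroviral DNA in human cells, was at 248, 253 and 221 FPKM. ZNF593, whose yeast relative acts in ribosome assembly, was at 67.6, 87.1 and 107 FPKM. The last 3 genes lay within 2-fold in every comparison, and these 4 genes carry zinc finger names without being chiefly transcription factors. The set of 4 may not be complete, since ZFP91 and ZFP106, described below, also have other roles.

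Leaving these 4 genes aside, the 9 members with the highest mean level included 4 BTB factors and were led by ZNF296. ZNF296 (chromosome 18, 52532427 to 52546866) measured 386, 382 and 908 FPKM. ZBTB32, a repressor of lymphocyte activation, measured 378, 579 and 666 FPKM, and ZBTB7B, also called ThPOK, which commits developing mouse T cells to the helper lineage, measured 315, 334 and 347 FPKM. ZFP91, a ubiquitin ligase of the noncanonical NF-kappa-B pathway in human cells, was at 276, 302 and 416 FPKM. ZNF217, which works with corepressors and is amplified in human breast cancers, was at 327, 323 and 206 FPKM. ZNF276 was at 221, 270 and 552 FPKM and ZNF414 at 190, 216 and 524 FPKM. ZNF238, now named ZBTB18, a repressor known from brain development, was at 265, 327 and 169 FPKM, and ZBTB7A, which represses fetal globin genes and favours the B cell over the T cell fate in mice, was at 260, 279 and 158 FPKM. Holstein and Jersey lay within 2-fold of each other for all of these, and Cholistani was the highest library for 6 of these 9 genes and the lowest for the other 3 as deposited, but the highest for 3 and the lowest for 5 once the libraries were rescaled to the same FPKM sum.

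Differences were expressed as a log2 fold, the log2 of the ratio of (FPKM + 1), and members are called higher or lower where that ratio reached 2-fold. Between the taurine breeds, few members passed this limit. In Jersey against Holstein, 3 members were higher and 1 was lower, whereas the share of all models with at least 10 FPKM was 6.82% higher and 3.88% lower, and that of models with a gene name was 3.61% and 1.75%. Across the 170 members, Pearson's r of the log2 levels was 0.94 between Holstein and Jersey, 0.81 between Holstein and Cholistani and 0.85 between Jersey and Cholistani, as a description of 3 libraries. The median log2 fold of the members was 0.13, with 120 of them above 0, against a median of 0 over all models. The member median was 0.05 when each library was rescaled to the same FPKM sum.

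The 4 genes that passed 2-fold between the taurine libraries all had low levels, and ZNF684 and ZNF548 reached 10 FPKM only in Jersey and ZNF618 only in Holstein, so that the limit for members favoured a difference in these 3. ZNF775 (chromosome 4, 117115179 to 117128131) was listed at 0 in Holstein and measured 18.01 FPKM in Jersey and 12.8 in Cholistani. ZNF684 measured 6.06 FPKM in Holstein and 14.9 in Jersey, and ZNF548 measured 3.77 and 10.8 FPKM. ZNF618 was the lower one, at 13.2, 5.60 and 3.29 FPKM in the order used above. None of the 83 members with at least 50 FPKM in a library passed 2-fold, where 3.598% of all models at that level were higher and 1.56% lower, and the nearest were ZNF606 with 26.3 FPKM in Holstein and 51.6 in Jersey, ZNF428 with 59.4 and 115 FPKM, and ZNF74 with 54.3 and 98.5 FPKM. The span of ZNF74 overlapped 28 other models, so its value may share reads with them. ZNF513, a factor needed in the retina, followed with 34.7 and 54.6 FPKM and ZNF142 with 64.4 and 95.9 FPKM. On the other side, Jersey was below Holstein for ZBTB38 with 147 against 206 FPKM, ZBTB17 with 178 against 249, ZNF652, a repressor in human cells, with 43.8 against 56.6, ZNF783 with 53.1 against 63.5 and ZNF317 with 58.0 against 69.2 FPKM, none of them by 2-fold.

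More members passed 2-fold in Cholistani, and most of those that did were lower in it, while 103 of the 170 lay within 2-fold in either comparison. Against Holstein, 53 members (31.2%) were lower and 14 (8.24%) were higher, while over all models 12.3% were lower and 19.2% were higher, and over named models 9.82% and 15.1%. The median log2 fold of the members was -0.49, against 0.18 over all models and 0.19 over named models. Against Jersey, 56 members (32.9%) were lower and 11 (6.47%) higher, beside 12.6% lower and 16.8% higher over all models and 8.96% and 12.7% over named models, and the member median was -0.60 against 0.15 over all models. Both comparisons use the same Cholistani library and are not independent of each other. Cholistani had the lowest of the 3 levels for 110 members (64.7%) and for 32.8% of all models, and Jersey had the highest level for 89 members (52.4%) and for 23.4% of all models.

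**Figure D2:**
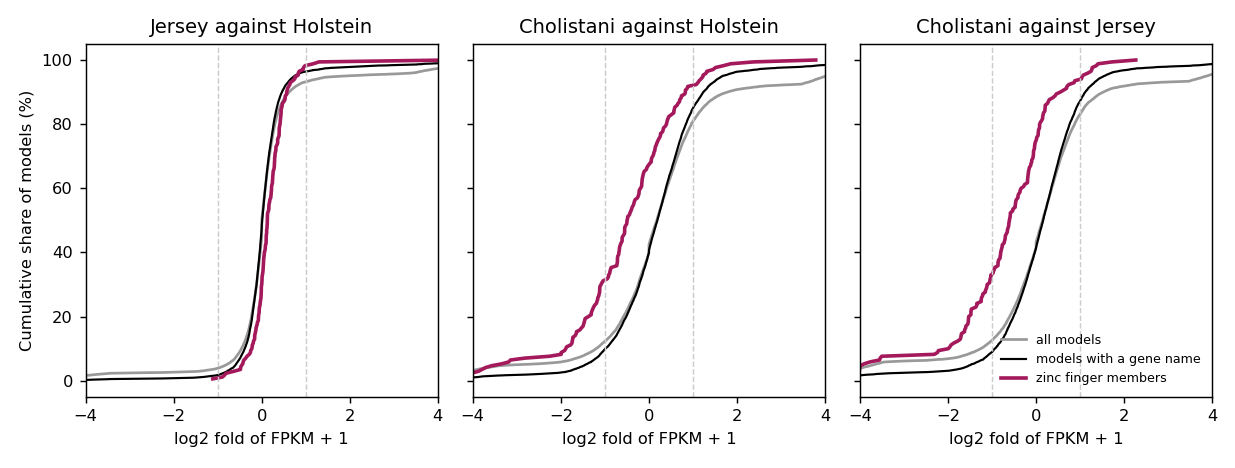
Cumulative share of models (percent) against the log2 fold of (FPKM + 1) in each pair of libraries, for the 170 members, the 7309 named models and all 14069 models with at least 10 FPKM in any library; dashed lines mark 2-fold. The member curve lies close to the others for Jersey against Holstein and to the left of them in both Cholistani comparisons, where the member medians are -0.49 and -0.60.

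The size of this difference depended on the scale. The FPKM of all models summed to 5949770 for Holstein, 6288100 for Jersey and 9518430 for Cholistani. Rescaling the libraries to the same sum moved the median of all models from 0.18 to -0.43 against Holstein and from 0.15 to -0.41 against Jersey. On that scale 94 members were lower and 4 higher than in Holstein, with a median of -1.15. Against Jersey 96 were lower and 2 higher, with a median of -1.18. Over all models 26.6% were lower and 10.6% higher than in Holstein on that scale, and 25.1% and 9.62% than in Jersey. Centring the folds on the median of all models gave 60 lower and 11 higher against Holstein, and 63 lower and 8 higher against Jersey. The centred shares of all models were 14.7% lower and 15.8% higher against Holstein, and 14.8% and 13.8% against Jersey. Since rescaling lowers all Cholistani folds together, members already lower had to remain so, and 33 of the 56 members above 0 against Holstein came to lie below it. Each of these scales shifts members and all models almost alike, so the member median had to stay below that of all models.

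Members with low levels were lower in Cholistani more often than abundant ones. To order them by a value outside the comparison with Holstein, they were divided by their Jersey level into 4 ranges of equal size. In the lowest range, up to 23.996 FPKM in Jersey, 26 of 43 members (60.5%) were lower in Cholistani than in Holstein, as were 24.4% of all models in the same range. The next range, up to 44.7 FPKM, had 18 of 42 members lower (42.9%, beside 17.97% of all models). Between 44.7 and 92.7 FPKM, 5 of 42 were lower (11.9%, beside 11.6%). In the highest range 4 of 43 were lower (9.30%, beside 5.71%) and 6 were higher (13.95%, beside 12.4%). Ranges of the mean of the 3 libraries, which contains the Cholistani value, gave 28 of 43 lower in the lowest range. Of the 53 lower members, 34 were under 10 FPKM in Cholistani and were members only through a taurine library, so the limit itself favoured lower values among them. The same limit applied to all models, but members had lower levels, with medians of 38.2 against 83.3 FPKM in Holstein. Its effect may therefore have been larger among members, and setting all models beside them does not remove it. Across the 170 members, which share the same 3 libraries and are not independent replicates, Spearman's rho between the Jersey level and the log2 fold of Cholistani against Holstein was 0.46. Among the 83 members with at least 50 FPKM in a library, 10 (12.05%) were lower and 12 (14.5%) higher than in Holstein, beside 7.67% and 16.3% of all models at that level, and their median log2 fold was -0.018 against 0.25.

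**Figure D3:**
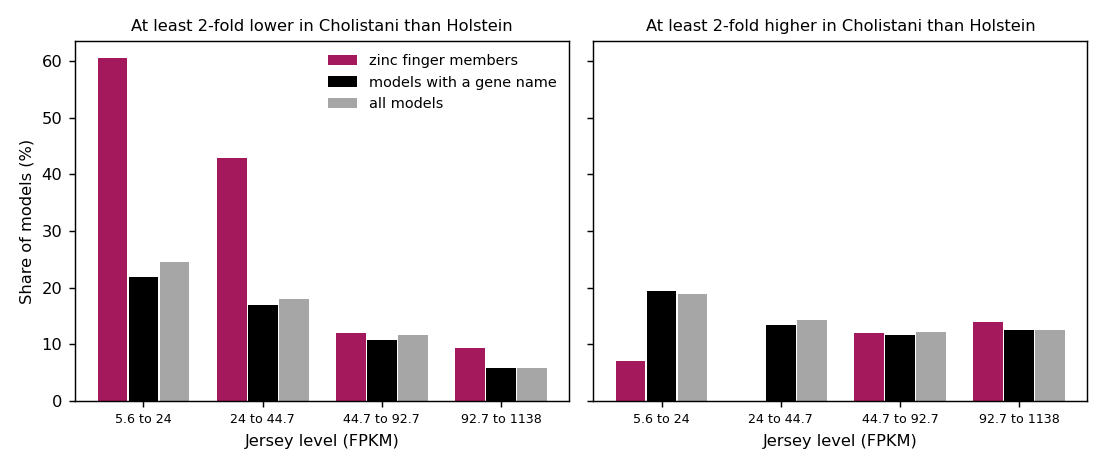
Share of models (percent) at least 2-fold lower (left) or higher (right) in Cholistani than in Holstein, by range of the Jersey level in FPKM, for the members (42 or 43 per range), the named models and all models in the same range. The members exceed the other bars in the lower ranges on the left, 60.5% against 24.4% of all models in the lowest, and come close to them in the upper ranges.

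Of the 53 members lower in Cholistani than in Holstein, 13 were listed at 0 in it, and no fold is given for these. All 13 were members only through a taurine library, so the limit favoured such zeros. The share at 0 over all models with at least 10 FPKM was not computed. Over models of any level, 13409 were above 0 in Holstein, 13783 in Jersey and 13666 in Cholistani. No member was listed at 0 in Jersey, and ZNF775 was the only one in Holstein. The most abundant of the 13 were ZNF865 (chromosome 18, 62323463 to 62325355) with 76.0 FPKM in Holstein and 65.5 in Jersey, ZBTB34 (chromosome 11, 101081300 to 101102368) with 60.4 and 38.5 FPKM, and ZNF646 (chromosome 25, 29013333 to 29017166) with 27.3 and 15.1 FPKM. ZBTB34 is a BTB repressor. The other 10 had at most 21.5 FPKM in either taurine library: ZNF699, ZNF540, ZFP41, ZBTB25, ZNF275, ZNF684, ZNF323, ZNF548, ZNF605 and ZNF334. Of the 13, 11 overlapped no other model and 2, ZNF540 and ZFP41, did. The number of fragments behind an FPKM of 0 is not known. ZNF865 stands next to ZNF524 (62334400 to 62335302), the member with the largest relative excess in Cholistani after ZFP36 among those with at least 50 FPKM.

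Among lower members that remained above 0 in Cholistani and had at least 50 FPKM in a library, ZBTB38 had the lowest fold against Holstein. ZBTB38 (chromosome 1, 129742993 to 129746541), which binds methylated CpG sites, measured 206, 147 and 61.6 FPKM, a log2 fold of -1.73 against Holstein and -1.25 against Jersey. ZNF518A measured 52.2, 54.5 and 18.1 FPKM, and ZNF24, a SCAN domain factor needed for myelination in mice, measured 123, 132 and 46.7 FPKM. Their log2 folds were -1.48 and -1.38 against Holstein and -1.54 and -1.48 against Jersey. ZNF664 followed with 89.4, 96.6 and 37.4 FPKM. ZNF317 at 69.2, 58.0 and 29.7 FPKM and ZNF652 at 56.6, 43.8 and 25.3 FPKM were also past 2-fold against Holstein. ZFP106, an RNA-binding protein needed by motor neurons and muscle in mice, was at 173, 220 and 94.0 FPKM and passed 2-fold only against Jersey. In each of these genes the Cholistani library was the lowest and the taurine libraries lay within 2-fold of each other.

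The 14 members higher in Cholistani than in Holstein included several of the most abundant. After ZFP36 came ZNF524 (chromosome 18, 62334400 to 62335302) with 79.3, 86.7 and 289 FPKM, a log2 fold of 1.85 against Holstein and 1.73 against Jersey. ZNF683, also called Hobit, keeps memory T cells and natural killer cells resident in mouse tissues. It measured 81.8, 100.1 and 267 FPKM (chromosome 2, 131025016 to 131034973), with log2 folds of 1.69 and 1.41. ZNF628, a factor needed for sperm formation in mice, was at 45.4, 61.8 and 131 FPKM. ZNF414 and ZNF276, given above, had log2 folds of 1.46 and 1.31 against Holstein, and ZNF296 had 1.23. ZNF703, a corepressor in human breast cancer cells, was at 20.2, 19.2 and 51.2 FPKM. The remaining members of the group were ZNF212, ZNF428, ZNF408, ZBTB49, ZBTB37 and ZNF775. Once the libraries were rescaled, ZFP36, ZNF524, ZNF683 and ZNF775 still passed 2-fold against Holstein, and ZFP36 and ZNF524 against Jersey.

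The 24 BTB members here are those with ZBTB names, without ZNF238, now ZBTB18. Of these 24, 8 (33.3%) were lower and 2 (8.33%) were higher in Cholistani than in Holstein, beside 12.3% and 19.2% of all models. After rescaling 14 (58.3%) were lower and 0 higher, beside 26.6% and 10.6% of all models and 55.3% and 2.35% of all members. After centring 8 were lower and 0 higher, beside 14.7% and 15.8% of all models. The median log2 fold of the 24 BTB members was -0.52 as deposited, -1.18 rescaled and -0.69 centred. Against Jersey, 7 of the 24 were lower and 1 was higher, with a median of -0.47. Over all models 12.6% were lower and 16.8% higher than in Jersey, and over all members 32.9% and 6.47%. After rescaling 13 were lower and 0 higher than in Jersey, beside 25.1% and 9.62% of all models and 56.5% and 1.18% of all members. No BTB member passed 2-fold between Jersey and Holstein. Their median level was 60.4, 62.2 and 68.3 FPKM, and 73.6, 71.7 and 52.0 after rescaling, so that Cholistani had the highest of the 3 medians as deposited and the lowest once rescaled. The BTB factor ZBTB49 was higher, with 38.1, 45.4 and 83.4 FPKM, as was ZBTB37 with 8.84, 7.61 and 19.7 FPKM. ZBTB6 and ZBTB26 are neighbours on chromosome 11. ZBTB6 (97242437 to 97244525) measured 31.0, 31.1 and 8.34 FPKM, and ZBTB26 (97250877 to 97252235) measured 20.3, 23.6 and 7.80 FPKM, both past 2-fold in the lower direction.

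**Figure D4:**
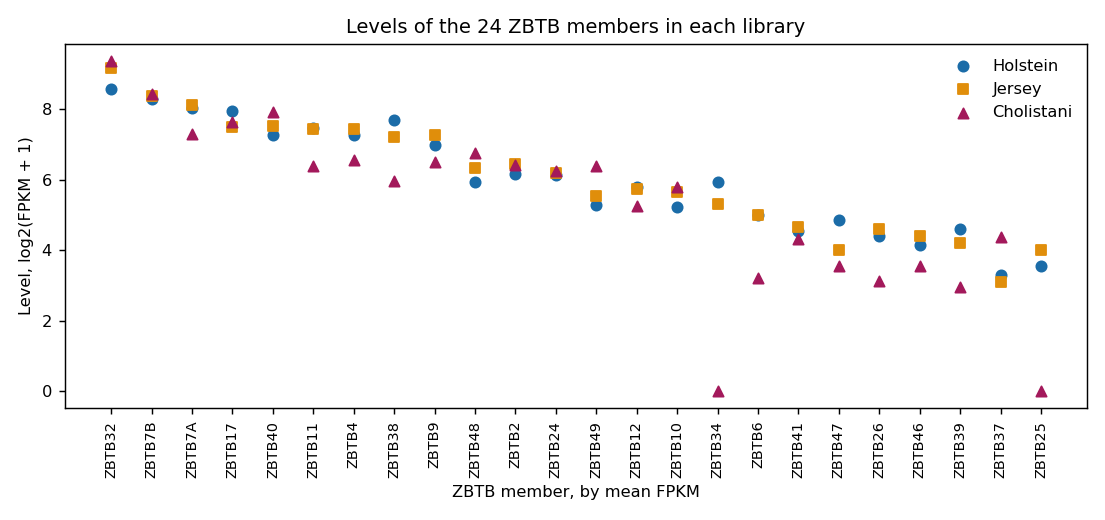
Level of the 24 ZBTB members as log2(FPKM + 1) in each library, ordered by mean FPKM. ZBTB32 is highest at 378, 579 and 666 FPKM, and Cholistani lies clearly below both taurine libraries at ZBTB11, ZBTB38, ZBTB6, ZBTB26 and ZBTB39 and at 0 for ZBTB34 and ZBTB25.

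Of the BTB factors known from lymphocytes, 7 were members and 1 of them, ZBTB25, which represses T cell activation genes in human cells, was lower in Cholistani, with 10.8 and 15.1 FPKM in Holstein and Jersey and a listed 0. Over all models 12.3% were lower. After rescaling 4 of these 7 were lower than in Holstein, ZBTB25, ZBTB7A, ZBTB17 and ZBTB46, beside 26.6% of all models and 55.3% of all members. ZBTB17, also called MIZ1, a partner of MYC that early B and T cells need in mice, measured 249, 178 and 198 FPKM. ZBTB24, mutated in a human immunodeficiency with unstable centromeres, measured 69.5, 72.4 and 74.96 FPKM. ZBTB46, a marker of classical dendritic cells in mice, measured 16.8, 20.3 and 10.7 FPKM. With ZBTB7A, ZBTB7B and ZBTB32 these lay within 2-fold of Holstein and of Jersey in Cholistani as deposited. ZBTB20 was found at 5.92 FPKM or less and was therefore no member. Both members that bind methylated DNA were lower in value in Cholistani, ZBTB38 past 2-fold and ZBTB4 with 154, 172 and 93.7 FPKM.

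Of 7 ZNF and ZFP members with roles in blood cells, 1 was higher and 1 lower in Cholistani than in Holstein. Over all models 19.2% were higher and 12.3% lower. ZNF683 was higher in Cholistani, and ZNF831 was lower, with 42.9, 43.7 and 15.1 FPKM. The other 5 members of this set lay within 2-fold in all comparisons as deposited. After rescaling 1 of the 7 was higher and 1 lower than in Holstein, beside 10.6% and 26.6% of all models. Against Jersey 0 were then higher and 2 lower, ZNF831 and ZNF318, beside 9.62% and 25.1% of all models. ZNF335, a component of histone methyltransferase complexes, was at 137, 141 and 163 FPKM. ZNF318, which in mouse B cells allows IgD to be made beside IgM, was at 99.1, 135 and 88.3 FPKM. ZNF467 was at 41.6, 44.7 and 47.3 FPKM and ZNF608 at 17.3, 31.5 and 23.7 FPKM, and ZFP91 is described above. ZNF366, a factor of dendritic cells, fell short of the limit for members.

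Factors that act at many promoters formed a further set. Of 11 such members, 2 were lower in Cholistani than in Holstein, ZNF24 and ZBTB11, and none was higher, beside 12.3% lower and 19.2% higher over all models. After rescaling 5 of the 11 were lower, beside 26.6% of all models and 55.3% of all members. ZBTB11, needed for neutrophil development in zebrafish, measured 176, 172 and 82.4 FPKM. ZNF143, an activator of small nuclear RNA genes and of many other promoters, measured 122, 117 and 103 FPKM, and its relative ZNF76 measured 142, 142 and 148 FPKM. ZNF148, which binds GC-rich promoters, was at 83.7, 81.6 and 71.6 FPKM, and ZNF410, an activator of the chromatin remodeller gene CHD4 in human cells, was at 204, 229 and 245 FPKM. ZBTB2 was at 70.4, 87.0 and 84.7 FPKM and ZNF282 at 20.6, 30.1 and 23.2 FPKM. ZNF263 with 43.6, 65.1 and 29.5 FPKM and ZNF219 with 11.3, 13.5 and 5.65 FPKM passed 2-fold only against Jersey. The median log2 fold of the 11 was -0.24 against Holstein, or -0.91 after rescaling, beside -0.49 and -1.15 over all members.

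The members were concentrated on chromosome 18, which held 46 of them (27.1%) but 5.86% of all models with at least 10 FPKM. There 17 of the 46 members were lower and 6 were higher in Cholistani than in Holstein. Over all members 31.2% were lower and 8.24% higher, and over all models 12.3% and 19.2%. The median log2 fold of the 46 was -0.70, beside -0.49 over all members, while the other 779 models of the chromosome had a median of 0.42. Over the genome, 76 members had another member within 500 kb and 94 stood alone. Those alone were more abundant, with a median of the mean FPKM of 56.3, against 24.1 for the 39 members in rows of at least 4. Against Holstein, 26.6% of the members that stood alone, 37.8% of those with 1 or 2 others near and 35.9% of those in rows were lower. The differences in level between these sets were not removed from these shares.

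The row with the most members lay on chromosome 18 from 45853108 to 47042436 of btau4.0 and held 12. Its first gene, ZBTB32, described above, had by far the highest level of the row in each library. Of the 12 members, 7 were lower in Cholistani than in Holstein and none was higher, with a median log2 fold of -1.05 (-1.69 after rescaling). The 34 other models in the same stretch had a median of 0.37, with 9 higher and 5 lower, but were not matched to the members by level. All members of the row but ZBTB32 were under 44.7 FPKM in Jersey. Over the whole family, 60.5% of members in the lowest range of the Jersey level were lower, and 42.9% in the next, up to 44.7 FPKM. ZNF260 measured 28.5, 33.3 and 7.85 FPKM. ZNF420 measured 27.8, 30.4 and 8.74 FPKM, and ZNF568, a KRAB factor needed by the mouse embryo, measured 26.7, 32.04 and 9.02 FPKM. In these 3 genes the Cholistani library was the lowest by far, as it was in ZNF570 with 26.7, 36.0 and 11.2 FPKM and in ZNF461 with 25.97, 27.5 and 11.9 FPKM. ZNF383 was at 32.4, 32.2 and 15.3 FPKM and ZNF540 at 13.6, 18.2 and a listed 0. The row was not uniform, since ZFP82 measured 39.4, 37.4 and 43.4 FPKM, ZNF567 measured 24.4, 20.8 and 18.1 FPKM, ZNF829 measured 17.3, 12.7 and 13.5 FPKM and ZNF345 measured 10.4, 14.3 and 6.08 FPKM.

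A second row on chromosome 18, from 64872016 to 66136789, held 10 members, of which 4 were lower in Cholistani and none higher than in Holstein. Over all members 31.2% were lower and 8.24% higher. The lower ones were ZNF548, ZNF416 with 21.5, 30.2 and 5.71 FPKM, ZNF211 with 18.3, 23.2 and 4.13 FPKM, and ZNF132 with 38.4, 44.7 and 13.0 FPKM. ZNF416, ZNF211 and ZNF134, the last at 59.4, 60.7 and 43.5 FPKM, each overlapped 17 other models, so fragments of neighbouring genes may have been divided among them. ZNF329 was at 66.9, 66.5 and 36.5 FPKM. ZNF446 with 18.5, 21.8 and 17.8 FPKM lay close to Holstein, and ZNF606 with 26.3, 51.6 and 32.9, ZNF584 with 20.4, 19.8 and 31.0 and ZNF444 with 156, 193 and 232 FPKM lay above it without passing 2-fold. The median log2 fold of the row was -0.65 (-1.31 after rescaling), and that of the 32 other models there was -0.13, with 9 lower and 6 higher.

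The row on chromosome 4, from 116536676 to 117128131, had no lower member. Of its 9 members, ZNF212 and ZNF775 were higher in Cholistani than in Holstein, the latter against a listed 0 and the former with a log2 fold of 1.22 that was 0.55 after rescaling. ZNF212 measured 73.6, 76.3 and 173 FPKM. ZNF746, known as PARIS, a repressor studied in neurons, measured 55.1, 56.6 and 92.6 FPKM, and ZNF786 measured 74.5, 74.1 and 66.6 FPKM. ZNF783 was at 63.5, 53.1 and 49.5 FPKM, ZNF862 at 27.3, 37.9 and 34.7 FPKM and ZNF398 at 13.4, 15.6 and 15.6 FPKM. The median log2 fold was 0.20 as deposited and -0.43 after rescaling, against 0.27 as deposited over the 14 other models of the stretch, of which 6 were higher and 2 lower. Against Jersey the median of the row was -0.10, with 6 of 9 members below 0. Shorter rows of 4 members stood on chromosome 17 and on chromosome 18 from 51562458 to 51962021. Against Holstein, the first had 2 lower and none higher, and its 3 other models had 1 lower and 0 higher. The second had 1 lower and 1 higher, and its 8 other models had 0 lower and 2 higher. Over all members 31.2% were lower and 8.24% higher, and rows of 4 are too short to compare with these shares.

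**Figure D5:**
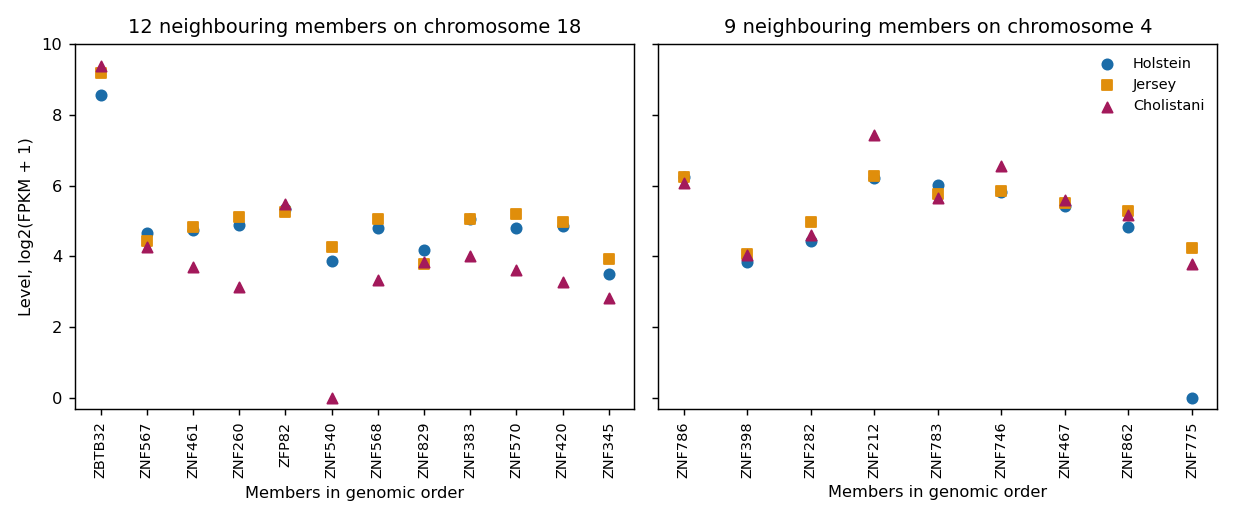
Level as log2(FPKM + 1) of the 12 neighbouring members on chromosome 18 (left) and the 9 on chromosome 4 (right), in genomic order, with 1 point per library. On chromosome 18 the Cholistani points lie at least 2-fold below Holstein for 7 genes, whereas on chromosome 4 none does.

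Of 10 cofactors of KRAB zinc fingers found by name, 1 was lower and none higher in Cholistani than in Holstein, beside 12.3% and 19.2% of all models. After rescaling 2 were lower, where 26.6% of all models were lower and 10.6% higher. The same shares of all models stand beside the sets below. TRIM28 itself measured 842, 921 and 1679 FPKM, under the 2-fold limit, HDAC1, a histone deacetylase, measured 815, 757 and 1124 FPKM, and the chromatin remodeller ATRX, the lower one, measured 120, 110 and 55.1 FPKM. The median log2 fold of the 10 was 0.33 as deposited but -0.35 after rescaling, beside -0.49 and -1.15 for the members. Of 7 corepressors and partners of BTB factors, CTBP2 was lower, with 139, 104 and 63.6 FPKM, and none was higher, and after rescaling 3 were lower. The most abundant of them were TBL1XR1 with 321, 339 and 213 FPKM and the ubiquitin ligase subunit CUL3 with 196, 255 and 224 FPKM. Of the other C2H2 factors with names outside the rule, 3 of 26 were higher and 3 were lower as deposited, and 2 were higher and 7 lower after rescaling, which moved their median log2 fold from 0.30 to -0.36. EGR1, an immediate early gene, measured 23.3, 41.6 and 885 FPKM, and KLF9, a factor induced by glucocorticoids, measured 77.1, 49.7 and 13.4 FPKM. The most abundant of them were MAZ with 794, 973 and 1339 FPKM and IKZF3, a factor of B cells, with 607, 658 and 510 FPKM. Of 9 CCCH proteins and their partners, ZFP36 was higher and RC3H2, which like ZFP36 promotes message decay, was lower with 54.2, 40.5 and 17.4 FPKM, and after rescaling 1 was higher and 3 were lower. CNOT7, a deadenylase, was the next in abundance after ZFP36, with 563, 524 and 574 FPKM.

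Markers of blood cell types differed between the libraries as well, and their part in the results above was not tested. All 4 natural killer cell markers found of 6 listed were higher in Cholistani than in Holstein and in Jersey as deposited, beside 19.2% and 16.8% of all models. After rescaling 2 and 3 of them were, beside 10.6% and 9.62% of all models. The summed level of these markers was 1090, 836 and 3580 FPKM. The summed T cell markers (5 of 8 found) were 5231, 5353 and 10603 FPKM, those of B cells (3 of 6) 6542, 8052 and 16162 FPKM, and those of monocytes (3 of 6) 652, 459 and 862 FPKM. Against Holstein, 1 T cell marker was higher, CD3E with 2041, 2127 and 6016 FPKM, and 1 B cell marker, CD79A with 5281, 6190 and 14273 FPKM. CD3E and CD79A made up most of the Cholistani sums of their sets. The B cell marker PAX5 was lower. Over all models 19.2% were higher and 12.3% lower. After rescaling no T cell or B cell marker was higher, and PAX5 was still lower, where 10.6% of all models were higher and 26.6% lower. Neutrophil markers (6 of 8) summed to 20847, 17473 and 20060 FPKM, most of it from S100A8 and S100A9. Against Holstein 2 of them were higher, CXCR2 with 33.5, 7.62 and 598 FPKM and CSF3R with 657, 532 and 1976 FPKM. After rescaling 1 was higher and 1 lower. Against Jersey 3 were higher as deposited, and 2 were lower in Jersey than in Holstein. The shares of all models given above stand beside these counts in Cholistani. Platelet markers (3 of 6) summed to 905, 1043 and 811 FPKM, in which PPBP had 821, 939 and 621 FPKM and GP9 had 84.5, 104 and 190 FPKM. Red cell markers (3 of 6) summed to 536, 375 and 102 FPKM, in which ALAS2 had 536, 363 and 32.3 FPKM while HBA had a listed 0, 11.5 and 69.3 FPKM. Listed at 0 were AHSP in all libraries, the alpha globin HBA in Holstein, MMP9 in Jersey, and GP1BA in Jersey and Cholistani.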

How the data were processed

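The authors aligned the reads of 1 library per breed to btau4.0 with TopHat 1.0.14 and Bowtie 0.12.7, discarded reads that matched more than 20 places, and estimated each gene model with Cufflinks 0.9.3. The deposited FPKM were normalized to the upper quartile and adjusted for sequence bias by the authors, and were used as deposited. Fragments per gene are not known, so no counting interval was given.

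The members and lists were chosen with earlier results of these data known. A pseudocount of 1 FPKM was added before each log2 fold, 2-fold was the limit, and models missing a value (5 in Holstein and Jersey) were left out. Listed starts were taken to count from 0, which the file does not state, and raised by 1. Named were the 12 most abundant members, the 6 highest and 6 lowest folds per comparison among members that reached 50 FPKM in one of its libraries, members of the role lists, those at 0 with at least 25 FPKM elsewhere, and the rows with the most members. Of listed non-members, examples are given. Other members were named after their values were seen. Entry names for ALAS2, S100A8, S100A9 and FCGR3A were matched after seeing the table. Current symbols came from RefSeq. The procedure was tested on simulated data. Python 3.11.15 and pandas 2.3.3 were used. Finger counts per protein and promoter composition were planned and not run. Ordering by the library outside a comparison was added after seeing the data. Alternatives were other pseudocounts, scales, level limits and name rules.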

Additional observations from a re-analysis of the deposited data

How the results depend on the processing

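With 1 library per breed no replicate could be left out, and no paired analysis was possible because each breed had 1 library. Over 12 other settings, 70 of 95 values stayed within 1.5 times the count or close to the median as reported, 25 moved and 0 reversed. In Jersey against Holstein, the counts of 3 higher and 1 lower became 1 and 0 with a pseudocount of 10, 0 and 0 for members with at least 50 FPKM, 6 and 3 for members above 0 in any library, and 1 and 0 for a mean of at least 10 FPKM, a limit chosen after seeing the data. In Cholistani against Holstein, a pseudocount of 10 left 25 lower members and a median of -0.37, and the limit of 50 FPKM left 10 lower and a median of -0.018. Rescaled libraries gave 94 lower, 4 higher and -1.15, and centred folds gave a median of -0.67. In Cholistani against Jersey, the same settings gave 32 lower and -0.47, 10 lower and -0.098, 96 lower, 2 higher and -1.18, and -0.75, and the mean of at least 10 FPKM gave -0.50. The higher pseudocount shrinks folds of low members by construction, and the 50 FPKM limit leaves 83 members. Depth per gene is unknown, so low levels carry an error of unknown size.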
